A study of Mus musculus with 12 samples.

Results

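The genes described here encode 10 acute phase proteins of the mouse liver: 4 serum amyloid A genes (Saa1, Saa2, Saa3 and Saa4), the alpha-1-acid glycoproteins Orm1 and Orm2, haptoglobin (Hp), lipocalin 2 (Lcn2), serum amyloid P component (Apcs) and the inter-alpha-trypsin inhibitor heavy chain Itih4. They were chosen by gene name and are 10 of the 56205 genes in the count table. A total of 24871 genes had a count and 13416 entered the test, all 10 acute phase genes among them. RNA was measured in whole livers of 12 ob/ob mice (B6.Cg-Lep ob/J), which carry a mutant leptin gene in every cell and become obese, so that both groups lacked leptin. The 6 mice of the OBOB_Fibrotic group received ethionine, an ethyl analogue of methionine that injures the liver, and the 6 mice of the OBOB_FLO group received chow without it. The labels give 0.165% DL ethionine in drinking water for 2 weeks, and another label gives an injection of 0.15%. The study's methods give 0.15% in drinking water for 1 week. Mice were 8 to 10 weeks old at the start and, by the labels, male. Poly(A) libraries were made, 1 per mouse, and the labels neither expand FLO nor name a batch. The word fibrotic is used below as the group name from the sample titles, and fibrosis was not examined here. The study describes ethionine-treated ob/ob mice as a model with microvesicular steatosis and inflammation, and saw no difference in the collagen gene Col1a1.

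The acute phase response is the rapid change in plasma proteins that hepatocytes make when tissue is injured or infected. Interleukin-6 family cytokines act on it through the shared receptor subunit gp130 and the factor STAT3, while interleukin-1 and tumour necrosis factor act through NF-kB and C/EBP factors. Positive acute phase proteins, such as serum amyloid A and haptoglobin, rise in plasma in such a response, and negative ones, such as albumin, fall.

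Total counts ran from 17815568 to 20352675 per fibrotic library and from 18275320 to 24814263 per FLO library, and the 10 genes took 0.454% to 0.901% and 0.471% to 0.755% of them. A pair of libraries stood apart. In FLO replicate 3 the X-inactivation transcript Xist reached 3773 counts and the Y-linked gene Ddx3y 4, where the other 11 libraries held 0 to 4 and 556 to 977, which goes against the label of males only. Fibrotic replicate 4 had the highest scaling factor (1.20) and the lowest summed CPM of 10 hepatocyte markers, at 13452 against 14920 to 22524 in the other fibrotic and 16595 to 20037 in the FLO libraries. CPM is counts scaled by the TMM-normalized library size. In whole liver, fewer cells of a type and less RNA per cell cannot be told apart.

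The 10 genes did not move as 1 block. Apcs, Orm2 and Saa3 were higher in fibrotic livers, Saa2, Saa4 and Itih4 were lower, and Saa1, Orm1, Hp and Lcn2 did not pass the test. The call needed both an adjusted p of 0.01 or less, over all tested genes, and an absolute log2 fold change over 0.5 (edgeR quasi-likelihood test with Benjamini-Hochberg adjustment). Under that rule 29.9% of all tested genes were called, 15.9% higher and 14% lower, so 3 and 3 of 10 is to be read against a broad change of the transcriptome. The median log2 fold change of the 10 genes was 0.26, beside 0.03 over all tested genes. The groups did not overlap in 4 of the 10 genes (Apcs above, and Saa2, Saa4 and Itih4 below), where 30.4% of all tested genes did not overlap, 15.3% with the fibrotic group above and 15.1% with it below. The number called higher rested on single libraries: it was 1, Apcs, without fibrotic replicate 4 or without FLO replicate 2.

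**Figure D1:**
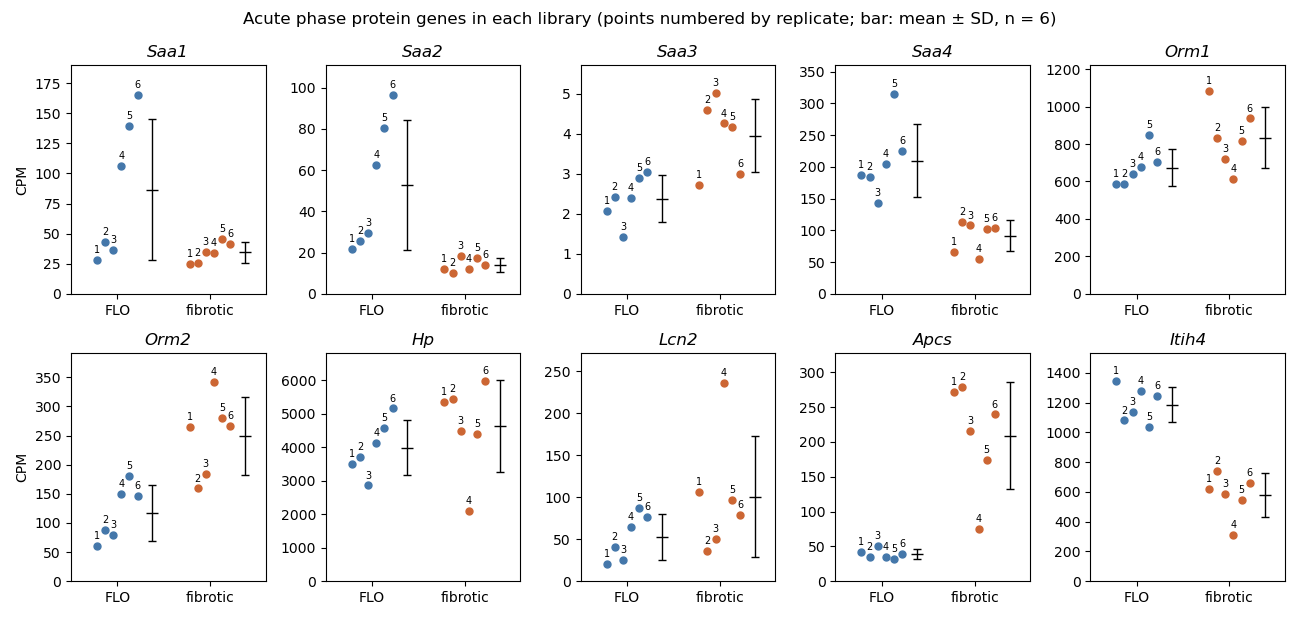
CPM of each acute phase gene (vertical axes, starting at 0) in the FLO and fibrotic livers, with 1 point per mouse numbered by replicate and bars for the mean ± SD (n = 6). Apcs lies between 74.8 and 279 in fibrotic and between 32.3 and 51.2 in FLO livers, while Saa1 in FLO livers runs from 28.0 to 166.

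The serum amyloid A genes lie side by side on chromosome 7 (GRCm38.p6): Saa3 at chr7:46711998-46719615, Saa4 at chr7:46727992-46732603, Saa1 at chr7:46740497-46743181 and Saa2 at chr7:46751833-46754313. Saa1 and Saa2 encode the inducible apolipoproteins that travel on high density lipoprotein. Their 250 bases upstream of the start are shown because the genes sit next to each other, moved in the same direction and have almost the same upstream sequence, 94.8% identical in alignment (RefSeq, GRCm38.p6; Saa1 chr7:46742981-46743230 on the minus strand, Saa2 chr7:46751583-46751832 on the plus strand; 5′ to 3′). Capitals mark matches to the C/EBP motif TTGCNNAA and to the NF-kB motif (GGG, any 5 bases, CC).
Saa1: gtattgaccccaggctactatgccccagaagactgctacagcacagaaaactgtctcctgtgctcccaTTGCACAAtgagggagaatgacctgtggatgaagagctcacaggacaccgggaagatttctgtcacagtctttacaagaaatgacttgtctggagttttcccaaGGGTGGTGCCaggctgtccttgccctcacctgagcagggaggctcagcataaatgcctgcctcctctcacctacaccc
Saa2: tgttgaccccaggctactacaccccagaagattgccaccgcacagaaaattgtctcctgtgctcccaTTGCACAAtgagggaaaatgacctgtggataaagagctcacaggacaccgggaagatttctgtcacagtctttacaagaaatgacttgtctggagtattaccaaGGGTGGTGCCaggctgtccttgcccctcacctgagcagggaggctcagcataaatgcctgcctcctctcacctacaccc
The C/EBP match began at position -182 of Saa1 and -183 of Saa2, counted from the start, and the NF-kB match at -78 and -79. Both genes carry the same letters at both matches. The start used for Saa1 lies inside the interval given for the gene above, so most of its upstream stretch falls within that interval.

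Saa1 was at 24.5, 25.3, 35.1, 34.1, 45.6 and 41.4 CPM in fibrotic replicates 1 to 6 and at 28.0, 43.1, 36.6, 106, 140 and 166 CPM in FLO replicates 1 to 6. The fibrotic livers sat close together, while the FLO livers fell into separate sets, 3 within the fibrotic range and 3 far above it. The means were 34.3 ± 8.44 and 86.6 ± 58.8 CPM (SD, n = 6 each). The log2 fold change was -1.33 (SE 0.43), with an edgeR adjusted p of 0.0223 that missed the threshold (two-sided exact permutation p = 0.0649). The call turned on single choices, and without FLO replicate 1 the gene was called (-1.52, edgeR adjusted p = 0.00609).

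Saa2 was at 12.1, 9.98, 18.5, 12.1, 17.4 and 14.0 CPM in the fibrotic and at 21.7, 25.7, 29.4, 62.6, 80.5 and 96.5 CPM in the FLO livers, in replicate order. Every fibrotic liver was below every FLO liver, though the lowest FLO liver came near the highest fibrotic one. Saa2 fell by 1.91 on the log2 scale (SE 0.38, edgeR adjusted p = 0.0010), and the exact permutation p was 0.00216, the smallest that 6 against 6 allows.

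The balance between Saa1 and Saa2 also differed. The ratio of Saa1 to Saa2 counts within a library was 2.02, 2.53, 1.89, 2.83, 2.62 and 2.95 in fibrotic livers and 1.29, 1.68, 1.24, 1.70, 1.73 and 1.72 in FLO livers. All fibrotic ratios lay above all FLO ratios, with means of 2.47 ± 0.429 and 1.56 ± 0.228 (SD, n = 6 each; two-sided exact permutation p = 0.00216, adjusted over 4 ratios 0.00288). The ratios were chosen after the values were seen. The 2 transcripts share 31.1% of the 50-base stretches of Saa1, so reads from these stretches could be assigned to either gene, and summed they gave -1.53 (edgeR adjusted p = 0.00721).

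Saa4, the serum amyloid A that is made constitutively, was at 65.8, 113, 108, 54.6, 102 and 103 CPM in fibrotic and at 187, 183, 143, 204, 314 and 225 CPM in FLO livers. No fibrotic liver reached the FLO range. Saa4 fell by 1.20 on the log2 scale (SE 0.21, edgeR adjusted p = 0.000224), and by 1.17 without fibrotic replicate 4 and FLO replicate 3 (edgeR adjusted p = 7.08e-05).

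Saa3, which in mice is made by macrophages and adipocytes as well as by hepatocytes, was by far the least abundant of the 10, at 33 to 93 counts per library. It was at 2.72, 4.58, 5.01, 4.26, 4.18 and 2.99 CPM in fibrotic and at 2.08, 2.41, 1.41, 2.40, 2.90 and 3.05 CPM in FLO livers, and the groups overlapped through fibrotic replicates 1 and 6. The log2 fold change was 0.74 (SE 0.21, edgeR adjusted p = 0.00747; exact permutation p = 0.0108). The call was lost without any 1 of 8 libraries (fibrotic replicates 2, 3, 4 and 5 and FLO replicates 1, 2, 3 and 4), where the value ran from 0.62 to 0.74 with an edgeR adjusted p of up to 0.0181. Of 10 macrophage markers 6 were called higher, beside 15.9% of all tested genes. These markers summed to 239 to 473 CPM in fibrotic and 197 to 224 CPM in FLO livers (two-sided exact permutation p = 0.00216). The part of macrophages in the Saa3 difference was not tested.

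Apcs, on chromosome 1 (chr1:172893961-172895054), encodes serum amyloid P component, a pentraxin that binds amyloid fibrils and is the main acute phase pentraxin of the mouse. It showed the largest change of the 10. Apcs was at 272, 279, 215, 74.8, 174 and 239 CPM in fibrotic livers and at 41.9, 34.3, 51.2, 35.2, 32.3 and 39.2 CPM in FLO livers. Even fibrotic replicate 4, far below the other fibrotic livers, was above the highest FLO liver, which was the library with counts of Xist. The mean rose from 39.0 ± 6.91 to 209 ± 76.2 CPM (SD, n = 6 each), a log2 fold change of 2.42 (SE 0.26, edgeR adjusted p = 5.45e-06). Without fibrotic replicate 4 and FLO replicate 3 it was 2.695 (edgeR adjusted p = 4.73e-09).

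The other classical pentraxin, Crp, went the opposite way. Crp encodes C-reactive protein, which is only a weak acute phase protein in mice, and it was at 16.7 ± 5.81 CPM in fibrotic and 133 ± 22.1 CPM in FLO livers (SD, n = 6 each). It fell by 2.99 on the log2 scale (SE 0.22, edgeR adjusted p = 1.34e-07), with 8.38 to 24.5 CPM against 106 to 155 CPM and no overlap.

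The alpha-1-acid glycoproteins are abundant plasma lipocalins that bind drugs and lipids, and their genes lie together on chromosome 4, Orm1 at chr4:63344556-63348163 and Orm2 at chr4:63362449-63365877, with Orm3 (chr4:63356069-63359506) between them. Orm2 was at 265, 159, 184, 342, 280 and 267 CPM in fibrotic and at 60.4, 88.5, 79.5, 149, 181 and 147 CPM in FLO livers. The ranges met only through fibrotic replicate 2 and FLO replicate 5. The mean was 249 ± 67.1 CPM in fibrotic and 118 ± 47.8 CPM in FLO livers (SD, n = 6 each), a log2 fold change of 1.09 (SE 0.27, edgeR adjusted p = 0.00386; exact permutation p = 0.00433). The call was lost without fibrotic replicate 4 (0.98, edgeR adjusted p = 0.0123) and without FLO replicate 2 (1.01, edgeR adjusted p = 0.0104).

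Orm1 was at 1084, 831, 722, 612, 815 and 936 CPM in fibrotic and at 589, 585, 640, 675, 850 and 704 CPM in FLO livers, with wide overlap. Its log2 fold change of 0.31 (SE 0.14) did not pass the test (edgeR adjusted p = 0.0703; exact permutation p = 0.0649). Orm3, not among the 10 genes, gave 1.12 (SE 0.28, edgeR adjusted p = 0.00412), a call lost without fibrotic replicate 1, without fibrotic replicate 4 or without FLO replicate 2 (1.003 to 1.07, edgeR adjusted p of up to 0.0123).

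The ratio of Orm1 to Orm2 counts was 4.10, 5.22, 3.93, 1.79, 2.91 and 3.51 in fibrotic livers and 9.75, 6.61, 8.06, 4.52, 4.71 and 4.80 in FLO livers. Fibrotic ratios were mostly the lower ones, at 3.58 ± 1.16 against 6.41 ± 2.14 (SD, n = 6 each; exact permutation p = 0.0108, adjusted over 4 ratios 0.0108). The Orm1 and Orm2 transcripts share 20.4% of their 50-base stretches, so the split of reads between them is uncertain. With Orm1, Orm2 and Orm3 summed the log2 fold change was 0.48 (edgeR adjusted p = 0.00771), under the fold minimum, since Orm1 holds most of the counts.

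The upstream sequence of Orm2 is shown because Orm2 was called higher while the more abundant Orm1 was not (RefSeq, GRCm38.p6, chr4:63362199-63362448, plus strand). Its C/EBP match, in capitals, begins at position -120.
Orm2: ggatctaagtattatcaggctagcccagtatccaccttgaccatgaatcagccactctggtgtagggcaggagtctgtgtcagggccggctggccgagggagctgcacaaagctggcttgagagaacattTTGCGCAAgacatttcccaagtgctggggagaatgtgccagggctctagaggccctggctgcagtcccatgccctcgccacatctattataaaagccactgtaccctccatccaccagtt

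**Figure D2:**
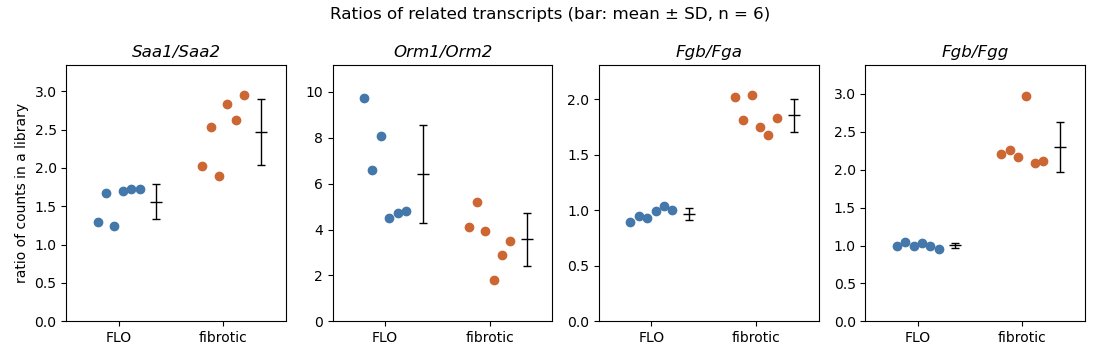
Ratios of counts within a library (vertical axes, starting at 0) for Saa1 over Saa2, Orm1 over Orm2, and the fibrinogen chains Fgb over Fga and Fgb over Fgg, with 1 point per mouse and bars for the mean ± SD (n = 6). Fgb over Fgg sits between 0.952 and 1.04 in FLO livers and between 2.09 and 2.97 in fibrotic livers.

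Haptoglobin, which binds free hemoglobin in plasma, was the most abundant of the 10 in both groups. Hp (chr8:109575128-109579172) was at 5335, 5445, 4487, 2104, 4399 and 5984 CPM in fibrotic and at 3504, 3702, 2857, 4126, 4561 and 5154 CPM in FLO livers. The groups overlapped, and fibrotic replicate 4 was the lowest of all 12 livers. The log2 fold change was 0.22 (SE 0.21, edgeR adjusted p = 0.411), or 0.37 without fibrotic replicate 4 (edgeR adjusted p = 0.0388), not called either way. Hemopexin, which binds free heme, differed more, with Hpx at 7934 ± 1749 CPM in fibrotic and 3925 ± 694 CPM in FLO livers (SD, n = 6 each). Hpx rose by 1.02 on the log2 scale (SE 0.17, edgeR adjusted p = 0.000122).

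Lipocalin 2 binds bacterial iron carriers and is made by injured hepatocytes and by neutrophils. Lcn2 (chr2:32384637-32387739) was at 106, 35.9, 50.3, 236, 96.5 and 78.8 CPM in fibrotic and at 20.5, 40.3, 25.4, 65.0, 87.0 and 76.7 CPM in FLO livers. The groups overlapped, and the spread within the fibrotic group was the widest of the 10 genes there, the highest liver holding 6.59 times the lowest. The log2 fold change of 0.94 (SE 0.49) did not pass the test (edgeR adjusted p = 0.132; exact permutation p = 0.128). It was 0.50 without fibrotic replicate 4, the highest liver (edgeR adjusted p = 0.362).

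Neutrophil, macrophage and cholangiocyte markers were examined as other sources of Lcn2. The 12 neutrophil markers summed to 3.50 to 8.70 CPM in fibrotic and 2.19 to 6.25 CPM in FLO livers (two-sided exact permutation p = 0.0498). Fibrotic replicate 4 held the highest neutrophil and macrophage sums, 8.70 and 473 CPM. Only 2 of the 12 neutrophil markers were abundant enough to test, of which Csf3r was called higher. The granule genes Camp, Ngp, Ltf, Elane and Mpo and the surface marker Ly6g had group means of 0 to 0.172 CPM. S100a8 averaged 0.769 CPM in fibrotic and 0.538 CPM in FLO livers, and S100a9 0.873 and 0.703 CPM. The 12 marker genes together summed to less than the lowest Lcn2 level of any liver, 20.5 CPM. A marker sum sets no bound on the Lcn2 RNA that neutrophils hold. Of 7 tested cholangiocyte markers 4 were called higher, beside 15.9% of all tested genes. Cholangiocyte markers summed to 97.9 to 302 CPM in fibrotic and 60.4 to 103 CPM in FLO livers. The part of these cells in the Lcn2 values was not tested.

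Itih4 (chr14:30886476-30901986) encodes a plasma protein cleaved by kallikrein and related to the inter-alpha-trypsin inhibitor heavy chains. It was at 619, 742, 586, 308, 544 and 659 CPM in fibrotic and at 1343, 1080, 1137, 1275, 1039 and 1246 CPM in FLO livers. Among FLO livers it varied least of the 10 genes (coefficient of variation 10.1%), and no fibrotic liver reached the FLO range. Itih4 fell by 1.04 on the log2 scale (SE 0.16, edgeR adjusted p = 8.51e-05), and by 0.92 without fibrotic replicate 4 and FLO replicate 3 (edgeR adjusted p = 1.12e-05).

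The upstream sequences of Apcs and Itih4 are shown together because they were the 2 of 8 with a match to the STAT motif TTCNNNGAA, while their transcripts changed in opposite directions (RefSeq, GRCm38.p6; Apcs chr1:172895055-172895304, minus strand; Itih4 chr14:30886226-30886475, plus strand). Capitals mark the STAT match, at -244 in Apcs and -51 in Itih4, and in Itih4 also 2 matches to the NF-kB motif.
Apcs: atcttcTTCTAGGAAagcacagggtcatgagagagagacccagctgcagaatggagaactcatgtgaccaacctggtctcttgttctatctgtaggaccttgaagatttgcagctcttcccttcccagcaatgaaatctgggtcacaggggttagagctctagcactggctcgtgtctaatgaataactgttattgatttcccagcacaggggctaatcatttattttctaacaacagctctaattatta
Itih4: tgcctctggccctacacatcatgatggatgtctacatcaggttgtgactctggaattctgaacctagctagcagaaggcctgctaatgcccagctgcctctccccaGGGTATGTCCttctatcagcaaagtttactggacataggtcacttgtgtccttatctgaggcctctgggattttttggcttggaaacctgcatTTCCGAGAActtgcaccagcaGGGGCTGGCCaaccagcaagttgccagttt

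An upstream sequence was held for 8 of the 10 genes, and none for Orm1 and Hp. That of Saa1 lies mostly, and that of Saa3 wholly, within the interval given above for the gene itself. Searched on both strands, the C/EBP motif TTGCNNAA was found in 6 of the 8 (Saa1, Saa2, Saa3, Saa4, Orm2 and Lcn2) and in 9.56% of 32851 RefSeq promoters of the same length. The STAT motif was found in 2 of the 8 and in 7.02% of all. The looser NF-kB motif (GGG, any 5 bases, CC) was found in 5 of the 8 (Saa1, Saa2, Saa4, Lcn2 and Itih4) and in 45.8% of all. The C/EBP match was shared by genes called higher (Orm2, Saa3) and lower (Saa2, Saa4), so the direction of change did not follow it. A match is a run of letters and not a measured site.

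Compared per length, as CPM per kilobase of the longest coding transcript, the order of the 10 genes differed between the groups. Both orders began with Hp (2962 in FLO and 3439 in fibrotic livers) and Orm1 (869.6 and 1076) and ended with Saa3 (1.08 and 1.80). In FLO livers Itih4 came next at 336, then Orm2 at 152, Saa1 at 142, Saa4 at 100.1, Saa2 at 80.9, Lcn2 at 57.4 and Apcs at 40.2. The neighbours from Orm2 down to Apcs were not in 1 order in every mouse, Saa1 exceeding Saa4 in 3 of 6 mice and Lcn2 exceeding Apcs in 4 of 6. In fibrotic livers Orm2 followed at 322, then Apcs at 215, Itih4 at 163, Lcn2 at 110.0, Saa1 at 56.4, Saa4 at 43.5 and Saa2 at 21.5. Here Orm2 exceeded Apcs, Apcs exceeded Itih4 and Itih4 exceeded Lcn2 in 5 of 6 mice each, and Lcn2 exceeded Saa1 in 4 of 6. Apcs thus stood at place 9 in FLO and at place 4 in fibrotic livers. The order between genes rests on the transcript chosen for the length. That was 609 bases for Saa1 and 652 for Saa2, but 2094 for Saa4 and 2200 for Saa3.

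Mice of the same group also differed from each other. In the FLO group replicates 4, 5 and 6 were the 3 highest livers for 7 of the 10 genes (Saa1, Saa2, Saa4, Orm1, Orm2, Hp and Lcn2), but not for Saa3, Apcs and Itih4. The share of all tested genes with the same 3 highest livers was not counted, so a general difference between libraries cannot be told apart. Saa1 with Saa2 and Orm1 with Orm2 also share stretches of sequence, from which reads could be assigned to either gene. The coefficient of variation of Saa1 was 67.9% among FLO and 24.6% among fibrotic livers, and that of Saa2 60.1% and 23.8%. Saa1 spanned 5.91-fold among FLO livers. For Apcs the order was the other way, at 17.7% among FLO and 36.4% among fibrotic livers. The metallothionein Mt1, a metal-binding protein gene induced in the acute phase, was at 56.0, 154, 106, 435, 880 and 750 CPM in FLO replicates 1 to 6, so it too was highest in replicates 4, 5 and 6. Adipocyte markers summed to 109, 194, 96.8, 220, 360 and 248 CPM in the same FLO livers, most of it Cidea, which fatty hepatocytes also express. Fabp4 (11.3, 16.8, 13.4, 17.4, 29.2 and 29.9 CPM) and Lipe were also highest in FLO replicates 4, 5 and 6. Cfd, too low for the filter, was at 2, 16, 52, 36, 97 and 75 counts in FLO and 0 to 4 in fibrotic libraries. Among FLO livers Plin1 and Retn were highest in replicate 3, and Adipoq and Lep had group means of 0.0374 to 0.106 CPM. The part of adipocytes in the Saa1 spread was not tested.

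Because Saa1 in FLO livers fell into separate sets of 3, no r over the 6 FLO livers is given, and each set is too small for an r of its own. Among the 6 fibrotic livers, Saa1 correlated with Saa2 at Pearson r = 0.73 (exact permutation p = 0.0917, or 0.206 adjusted over 18 relations, those of the FLO group included) and at Spearman rho = 0.66 (exact permutation p = 0.175, adjusted 0.394). Without fibrotic replicates 1 and 2, farthest from the Saa1 median, r was 0.33. For the other 8 genes r ran from -0.34 to 0.41, with adjusted exact permutation p from 0.75 to 0.793. In the fibrotic group replicate 4 was the lowest liver for 5 of the 10 genes (Saa4, Orm1, Hp, Apcs and Itih4) and the highest for Orm2 and Lcn2, so it was not low throughout.

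**Figure D3:**
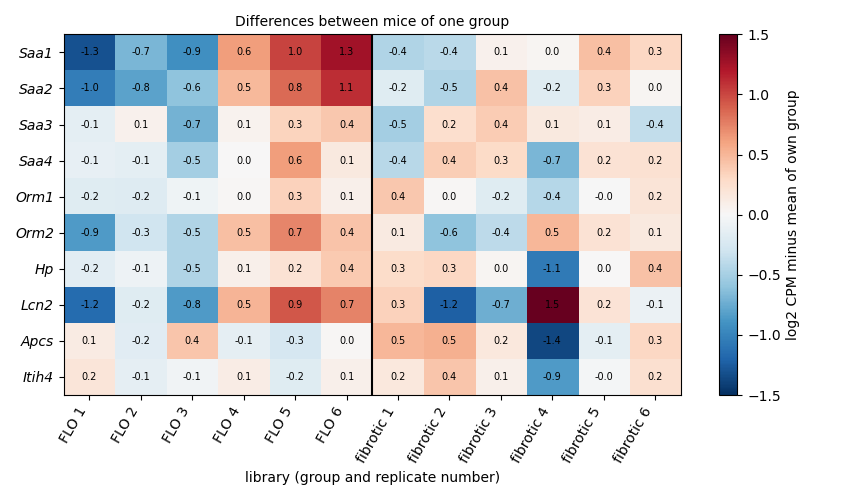
Heat map of log2 CPM minus the mean of the mouse's own group, for the 10 acute phase genes (vertical) in each library (horizontal), on a color scale from -1.5 to 1.5. FLO replicates 4, 5 and 6 are above their group mean for most genes, and fibrotic replicate 4 is low for Hp, Apcs and Itih4 and high for Orm2 and Lcn2.

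Among 11378 genes whose log2 CPM averaged 1 or more, those most like each pattern were ranked by Pearson r of group-centered log2 CPM over the 12 libraries, as a description. Nearest to Saa1 were Mt2, Mt1, Rbpms, Lrfn3 and Chkb. No r is given for them because the FLO values fall into separate sets. Nearest to Orm1 were Gas5 (r = 0.95), Dynlrb1 (0.95), Tpt1 (0.94), Rpl30 (0.94) and Mrpl28 (0.93). Nearest to Lcn2 were P2ry13 (0.96), Plvap (0.96), Ear2 (0.95), Otulinl (0.94) and Clca3a1 (0.94). These r are the highest among the 11378 genes, so they are large by selection. Those for Lcn2 also include fibrotic replicate 4, at 236 CPM far above the other fibrotic livers.

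Other acute phase proteins of the liver also changed in both directions. Of 22 listed and tested, 5 were called higher and 7 lower, beside 15.9% and 14% of all tested genes, with a median log2 fold change of -0.04. The largest rise was that of Cd14, the endotoxin coreceptor, at 19.1 ± 4.89 CPM in fibrotic and 5.79 ± 2.81 CPM in FLO livers (SD, n = 6 each, log2 fold change 1.72, SE 0.27, edgeR adjusted p = 0.000122). Fibrotic replicate 4 held both the highest Cd14 level, 25.7 CPM, and the highest macrophage marker sum. The part of macrophages in the Cd14 difference was not tested. The largest falls were those of the metallothioneins Mt2 (-4.06, SE 0.79, edgeR adjusted p = 0.00125) and Mt1 (-3.89, SE 0.68, edgeR adjusted p = 0.000561), with Mt1 at 26.7 ± 6.36 CPM in fibrotic livers against 397 ± 352 CPM (SD, n = 6 each). Il1rn, the interleukin-1 receptor antagonist, gave -1.08 (SE 0.30, edgeR adjusted p = 0.00785), a call lost without any 1 of 8 libraries (fibrotic replicates 1, 2, 3 and 6 and FLO replicates 1, 4, 5 and 6; edgeR adjusted p of up to 0.0216).

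The 3 fibrinogen chains, which are assembled in equal numbers, parted. Fgb rose by 0.82 on the log2 scale (SE 0.14, edgeR adjusted p = 0.000185), while Fga gave -0.11 (SE 0.15, edgeR adjusted p = 0.557) and Fgg -0.40 (SE 0.12, edgeR adjusted p = 0.0101), neither called. The ratio of Fgb to Fga counts was 1.86 ± 0.147 in fibrotic and 0.97 ± 0.0542 in FLO livers, and that of Fgb to Fgg 2.30 ± 0.334 and 1.0 ± 0.0302 (SD, n = 6 each; exact permutation p = 0.00216 and adjusted over 4 ratios 0.00288 for both). Both ratios separated the groups fully.

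Of 8 negative acute phase proteins, 4 were called lower and 1 higher, beside 14% and 15.9% of all tested genes, with a median log2 fold change of -0.55. Apoa1, the main protein of high density lipoprotein, fell by 1.68 (SE 0.16, edgeR adjusted p = 7.93e-07), Fetub by 1.63 (SE 0.15, edgeR adjusted p = 4.05e-07), Serpina6 by 1.04 and Rbp4, the retinol carrier, by 0.80 on the log2 scale. Ahsg, which encodes fetuin-A, rose by 1.04 (SE 0.13, edgeR adjusted p = 1.14e-05). Alb, which encodes albumin, gave -0.31 (SE 0.14, edgeR adjusted p = 0.0803). Of the 10 hepatocyte markers, 4 were called lower and 1 higher.

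**Figure D4:**
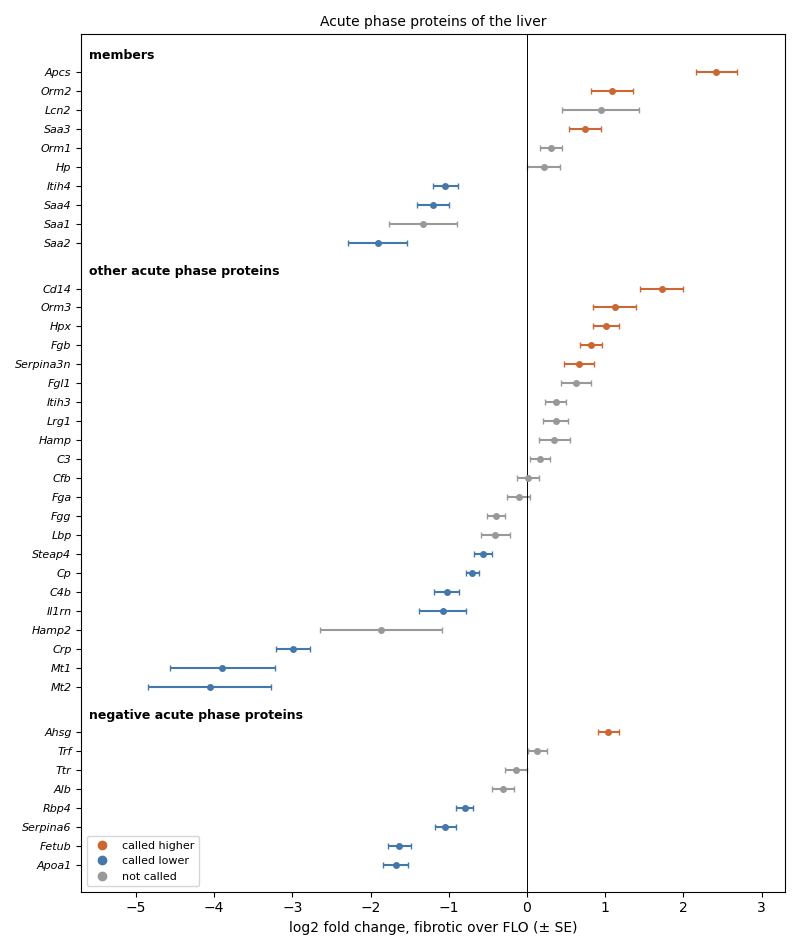
Log2 fold change, fibrotic over FLO (horizontal axis; bars are ± 1 SE of the edgeR fit), of the 10 acute phase genes, 22 other acute phase proteins and 8 negative ones. Each set runs to both sides of 0, from -1.91 to 2.42 among the 10 and from -4.06 to 1.72 among the others.

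The transcripts of the inducing cytokines were scarce in whole liver. Il6 was at 0 to 4 counts in fibrotic and 0 to 2 counts in FLO libraries, Tnf at 0 to 16 and 1 to 7, and differences in them were not detectable at this depth. Il22 and Il17a were at 0 counts in all 12 libraries, which allows up to 3 counts in each, 0.121 to 0.168 per 1000000 counts of the library (counting error only). Of 11 listed cytokines 4 could be tested, and 1 of these was called, beside 29.9% of all tested genes. It was Ctf1, which encodes cardiotrophin 1, at a log2 fold change of -1.01 (SE 0.21, edgeR adjusted p = 0.000731). Il1b gave 0.03 (SE 0.39, edgeR adjusted p = 0.958), a value whose sign turned in several alternatives. Lif, a gp130 cytokine chosen after its values were seen, was at 65, 25, 8, 45, 35 and 49 counts in fibrotic and at 6, 3, 6, 2, 8 and 9 counts in FLO libraries. It was too low for the filter, and a fit without the filter gave 2.64 (SE 0.42, edgeR adjusted p = 2.02e-05).

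Of 11 tested receptor genes 1 was called higher and 2 lower, shares close to the 15.9% and 14% of all tested genes. Il22ra1, the interleukin-22 receptor chain of hepatocytes, rose from 3.85 ± 1.78 to 10.9 ± 4.40 CPM (SD, n = 6 each; log2 fold change 1.502, SE 0.30, edgeR adjusted p = 0.000859). Il1rap, the accessory chain of the interleukin-1 receptor, fell from 91.4 ± 8.58 to 21.7 ± 6.37 CPM (SD, n = 6 each; -2.07, SE 0.17, edgeR adjusted p = 2.74e-07). Il6ra, the interleukin-6 receptor, gave -0.78 (SE 0.16, edgeR adjusted p = 0.000885) and Il6st, which encodes gp130, 0.19 (SE 0.09, edgeR adjusted p = 0.101).

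Where 29.9% of all tested genes were called, of 16 signal and transcription factors only Cebpb was. It encodes C/EBP beta and rose from 41.1 ± 8.23 to 81.1 ± 17.5 CPM (SD, n = 6 each; log2 fold change 0.98, SE 0.15, edgeR adjusted p = 6.26e-05). Cebpd gave 0.13 (SE 0.22, edgeR adjusted p = 0.66) and Stat3 -0.33 (SE 0.12, edgeR adjusted p = 0.0317). Of 8 tested feedback genes, Socs3, the inhibitor that STAT3 induces, gave -0.16 (SE 0.36, edgeR adjusted p = 0.725). Tnfaip3, an inhibitor of NF-kB signaling, gave 0.84 (edgeR adjusted p = 0.00958), or 0.53 without fibrotic replicate 4 and 0.44 without that library and FLO replicate 3, and Zfp36, which speeds the decay of cytokine mRNA, -0.66 (edgeR adjusted p = 0.00821). Each of these calls was lost without any 1 of 8 libraries: for Tnfaip3, fibrotic replicates 2 and 5 and all FLO replicates (edgeR adjusted p of up to 0.0227), and for Zfp36, fibrotic replicates 2, 3, 5 and 6 and FLO replicates 1, 2, 3 and 6 (edgeR adjusted p of up to 0.0198).

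**Figure D5:**
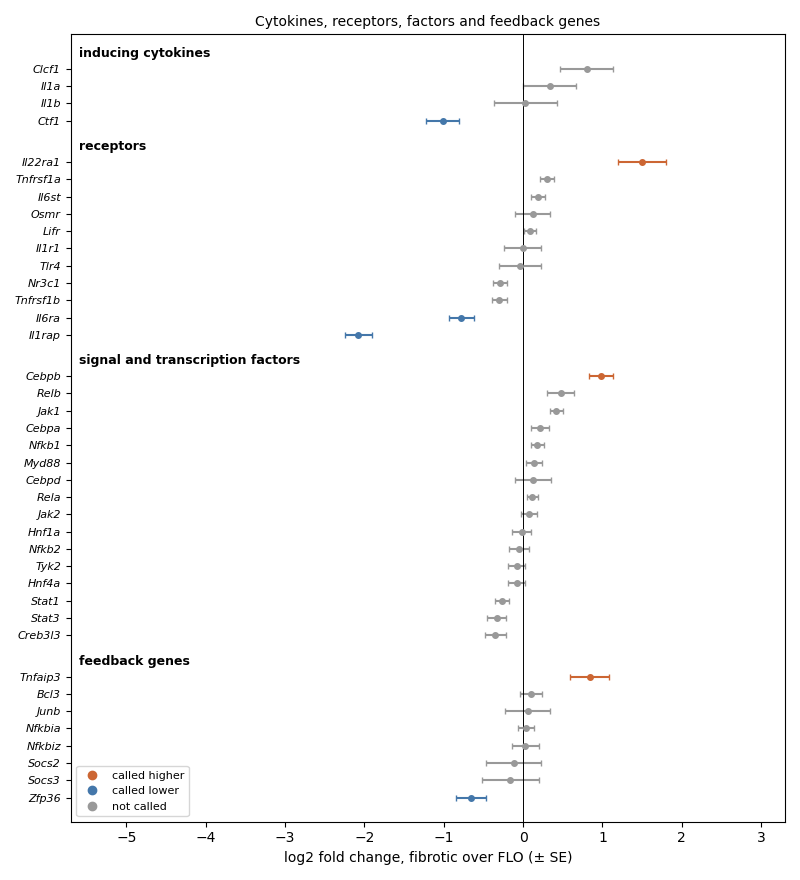
Log2 fold change, fibrotic over FLO (horizontal axis; bars are ± 1 SE of the edgeR fit), of the tested cytokine, receptor, factor and feedback genes. Cebpb and Il22ra1 lie to the right and Il1rap far to the left at -2.07, while most of the other genes lie near 0.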

How the data were processed

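Poly(A) RNA of whole livers from 12 mice was sequenced, and the submitters' processing notes name bcl2fastq, STAR 2.7.3a and mm10. The authors deposited raw whole-number counts per Ensembl gene, without normalization. The mouse annotation and the use of strand in counting are not given in the sources used here. Groups and replicate numbers were read from the sample titles. Gene symbols were matched for 51745 of 56205 identifiers, and gene positions came from RefSeq (GRCm38.p6). Overlap was checked in GENCODE M21, in which no gene overlapped the 10 genes.

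Counts were tested in R 4.3.3 with edgeR 4.0.16 (TMM, filterByExpr, robust quasi-likelihood fit, Benjamini-Hochberg adjustment), at the study's thresholds of FDR 0.01 and absolute log2 fold change over 0.5. The SE is the absolute log2 fold change divided by the root of F. For single values, a two-sided exact permutation test enumerated 924 assignments of mean log2 CPM (prior count 2). Alternatives were RLE and upper quartile scaling, TMM without the 50 largest genes, other low-count filters, DESeq2 1.42.0, limma-voom 3.58.1, a replicate block, a non-robust fit, other thresholds, summed paralogs and leaving out libraries. Leaving out fibrotic replicate 4 together with FLO replicate 3 and the count ratios were added after the data were examined. Libraries of a group differed in every pair by more than sampling noise (smallest chi-square per degree of freedom 10.3 over 30 pairs).

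The 10 genes, the pathway and marker lists and the tests were chosen with earlier results of these data known. Besides the 10 genes, the text names of each pathway list at most 4 called genes in each direction, those with the largest absolute log2 fold change, and always Il6, Il1b, Tnf, Il6ra, Il6st, Stat3, Cebpb, Cebpd, Socs3, Crp and Alb. Fga, Fgg and Lif were named after their values were seen. Promoters are the 250 bases before the start in RefSeq (GRCm38.p6), searched for each motif on both strands. On simulated counts with 191 changed genes among 13303, the fit recovered 76.1% of 2-fold and 97.1% of 4-fold changes, and 1.76% of its calls were unchanged genes. In the data 4012 of 13416 genes were called, and no library was simulated to stand apart, so these shares may not carry over.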

Additional observations from a re-analysis of the deposited data

Results flagged for a closer look

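In 58 sets of 6 values the farthest library was measured by its distance to the next one as a share of the whole range, and compared with Dixon's 95% critical value. A total of 7 sets passed it, where chance gives about 2.9. The sets overlap, since the summed CPM of the 10 genes holds Hp, Apcs and Itih4, so 7 is not a count of separate results. Fibrotic replicate 4 accounted for 5 of them. It was far below the other fibrotic livers for Hp (0.706), Apcs (0.641), Itih4 (0.647) and the summed CPM of the 10 acute phase genes (0.669), and far above them for the ratio of Fgb to Fgg counts (0.778). The same library held the lowest hepatocyte and the highest macrophage and neutrophil marker sums of its group. The other 2 were in the FLO group, where replicate 6 was high for the summed inducing cytokines (0.805) and replicate 1 low for the summed stellate cell markers (0.656). The causes were not tested.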

How the results depend on the processing

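Over all alternatives that held the gene, Apcs remained called higher, and Saa2, Saa4 and Itih4 lower, while Orm1, Hp and Lcn2 were called in none. Saa1 was called in the fit that was not robust (-1.33, edgeR adjusted p = 0.00964), in DESeq2 (-1.35, adjusted p = 0.00704), at an FDR of 0.05 without a fold minimum (-1.33), and summed with Saa2 (-1.53). Saa3 was not called with upper quartile scaling (0.71, edgeR adjusted p = 0.0104), nor Orm2 without the low-count filter (1.08, edgeR adjusted p = 0.0161) or summed with Orm1 and Orm3 (0.48). At an FDR of 0.05 without a fold minimum 6994 genes were called in place of 4012, 14 pathway genes higher in place of 9, and 12 marker genes lower in place of 5. Tnfaip3 was not called with RLE (0.82) or upper quartile scaling (0.81), without the low-count filter (0.83) or in limma-voom (0.77). Without fibrotic replicate 4 and FLO replicate 3, 1 of the 10 genes was higher, Saa3 gave 0.60 (edgeR adjusted p = 0.0217) and Orm2 0.89 (edgeR adjusted p = 0.0232).

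Leaving out 1 library at a time gave 3798 to 4093 genes called, 1 to 3 of the 10 genes higher and 3 to 4 lower, and log2 fold changes of -1.52 to -1.04 for Saa1, -2.07 to -1.65 for Saa2, 0.62 to 0.83 for Saa3, -1.29 to -1.05 for Saa4, 0.22 to 0.39 for Orm1, 0.95 to 1.25 for Orm2, 0.13 to 0.37 for Hp, 0.50 to 1.14 for Lcn2, 2.32 to 2.60 for Apcs and -1.13 to -0.90 for Itih4. Pathway genes called higher ran from 7 to 11 and lower from 12 to 15, and marker genes called higher from 7 to 14, beside 13 with all libraries, and lower from 5 to 7. The sign turned for Il1b in the replicate block (-0.054), in limma-voom (-0.0018), and on leaving out fibrotic replicate 4 (-0.30) or 6 (-0.043) or FLO replicate 2 (-0.015) or 4 (-0.15), and without fibrotic replicate 4 and FLO replicate 3 together (-0.28), where Cebpd gave -0.069. Over the fits without 1 library, Il1b ran from -0.30 to 0.29 and Socs3 from -0.37 to 0.18, the latter without FLO replicate 6. None of these was called, and the causes were not tested. Other scalings moved the median of all genes by at most 0.0276.

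Libraries of the same replicate number did not deviate together as wholes (r from -0.162 to 0.104, none best with its own number). For single genes this does not decide whether the numbers are only names. For Orm2 the highest livers were replicates 4, 5 and 6 in both groups, while no other acute phase gene described here shared its highest livers in this way. A replicate block gave 3780 calls and took Saa3 out of the called genes (0.74, edgeR adjusted p = 0.0216). Limits are the low counts of Saa3 and of the cytokines, and sequence shared by Saa1 with Saa2 and by Orm1 with Orm2. Further limits are a treatment on which the labels disagree and a library that goes against the label of males. A batch, if there was one, cannot be told apart from the groups.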

Other observations

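The marker sums of the remaining cell types were compared between the groups. The 8 endothelial markers summed to 156 to 203 CPM in fibrotic and 213 to 239 CPM in FLO livers, with no overlap (two-sided exact permutation p = 0.00216), and Kdr, a receptor of vascular endothelial growth factor, fell by 0.58 on the log2 scale (SE 0.09, edgeR adjusted p = 6.07e-05). The 8 stellate cell markers summed to 253 to 375 and 224 to 312 CPM (exact permutation p = 0.199), and 1 of the 8 was called, beside 29.9% of all tested genes. It was Lrat, which stores vitamin A (0.72, SE 0.21, edgeR adjusted p = 0.00958), while Des gave -0.80 (SE 0.31, edgeR adjusted p = 0.041). Lymphocyte markers were near the detection limit, at 1.97 to 5.42 CPM in sum in fibrotic and 2.13 to 5.39 CPM in FLO livers (exact permutation p = 0.994). Of the adipocyte markers, Cidea gave -1.05 (SE 0.36, edgeR adjusted p = 0.0255) and Fabp4 0.02 (SE 0.40, edgeR adjusted p = 0.969), neither called.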
